A study of Mus musculus with 4 samples.

Results

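The regions described here are the H3K9me3 islands that lie in gene deserts of the mouse autosomes. The mark, trimethylated lysine 9 of histone H3, was mapped by native ChIP-seq, that is, immunoprecipitation and sequencing of nuclease-cut chromatin without cross-linking. The cells were CD8+ T cells from C57BL/6 mice, wild-type in both groups. One group was naive cells (day 0). The other had been cultured for 3 days (day 3) with anti-CD3 and anti-CD28 plus IL-2, which stand in for antigen, costimulation and growth factor. Both used an Abcam antibody to H3K9me3, while the labels name neither the number nor the age of the mice. Each group had 1 ChIP library, so no test between days could be made, and every difference described sets 1 library against another. An island is a region in which the authors' caller joined neighbouring enriched windows, and where none is listed, no region passed their threshold, whether or not some mark was there. An island was taken as a member when both of its ends lay at least 250 kb from the body of every protein-coding gene, using mm10 positions and RefSeq genes (GRCm38.p6, the same assembly). This rule used gene positions and no measured value. It gave 2079 members among the 19989 islands listed on day 0 and 9991 among the 47553 listed on day 3, or 12070 of 67542 in all.

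H3K9me3 marks constitutive heterochromatin, where it is bound by HP1 proteins and helps to keep repeats and genes of other cell types silent. Gene deserts are long stretches without protein-coding genes. Many are rich in A and T, hold many transposon copies and lie at the nuclear periphery, and some hold distant enhancers of the gene at their edge. No input library and no genome sequence was used here, so neither background nor repeat content stands beside the values.

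The deserts do hold non-coding genes, and the islands can be shown at the sequence level where RefSeq gives the start of such a gene. Of the 866 lncRNA genes (genes of long non-coding RNA) that lie wholly in deserts, 633 had promoter sequences of 300 bases each in the RefSeq table of build GRCm38.p6, 775 in all. A promoter was counted as inside an island when all its bases were covered. There were 6 such promoters of 5 genes on both days, 16 on day 0 alone, 51 on day 3 alone and 702 on neither. In all, 2.84% of desert promoters lay in islands on day 0 and 7.35% on day 3, against 3.03% and 2.93% of lncRNA promoters outside deserts. The sequences below were chosen for lying in deserts described later, and are written 5′ to 3′ with each CG pair in capitals, the site at which mammalian DNA is methylated. Those of Gm41334 (chr15:63070715-63071014, minus strand), Gm40661 (chr13:5553139-5553438, plus strand) and Gm41226 (chr14:90648099-90648398, plus strand) lay in islands on both days. Gm41334 is in the desert between Myc and Gsdmc, Gm40661 in that between Akr1e1 and Klf6, and Gm41226 in the longest desert, between Pcdh20 and Pcdh9.
Gm41334: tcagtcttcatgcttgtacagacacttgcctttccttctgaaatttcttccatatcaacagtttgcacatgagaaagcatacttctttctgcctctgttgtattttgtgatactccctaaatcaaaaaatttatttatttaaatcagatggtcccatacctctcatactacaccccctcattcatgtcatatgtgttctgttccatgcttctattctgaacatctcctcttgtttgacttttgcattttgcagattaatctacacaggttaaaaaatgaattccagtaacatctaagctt
Gm40661: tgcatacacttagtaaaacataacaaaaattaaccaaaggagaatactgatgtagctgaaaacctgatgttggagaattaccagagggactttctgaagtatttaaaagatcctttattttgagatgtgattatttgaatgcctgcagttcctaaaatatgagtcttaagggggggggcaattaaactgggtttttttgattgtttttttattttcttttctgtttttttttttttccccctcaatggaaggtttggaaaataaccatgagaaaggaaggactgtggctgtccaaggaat
Gm41226: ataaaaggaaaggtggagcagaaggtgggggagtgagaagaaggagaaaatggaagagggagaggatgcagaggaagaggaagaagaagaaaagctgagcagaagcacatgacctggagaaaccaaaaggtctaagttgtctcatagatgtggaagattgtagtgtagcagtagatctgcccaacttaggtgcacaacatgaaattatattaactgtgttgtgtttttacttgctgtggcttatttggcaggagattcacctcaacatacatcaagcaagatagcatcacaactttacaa
The next promoter, of Gm41335 (chr15:63356977-63357276, minus strand), is in the same desert as Gm41334 but lay in an island on day 0 alone.
Gm41335: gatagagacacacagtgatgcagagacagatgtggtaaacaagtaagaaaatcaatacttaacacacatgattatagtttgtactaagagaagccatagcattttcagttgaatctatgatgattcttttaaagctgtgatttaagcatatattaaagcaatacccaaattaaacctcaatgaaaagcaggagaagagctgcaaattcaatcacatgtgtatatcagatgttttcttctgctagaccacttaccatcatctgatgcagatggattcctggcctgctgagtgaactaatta
Those of Gm30957 (chr2:8946686-8946985, plus strand), between Celf2 and Gata3, and of Gm13481 (chr2:48457216-48457515, minus strand), between Zeb2 and Acvr2a, lay in islands on day 3 alone.
Gm30957: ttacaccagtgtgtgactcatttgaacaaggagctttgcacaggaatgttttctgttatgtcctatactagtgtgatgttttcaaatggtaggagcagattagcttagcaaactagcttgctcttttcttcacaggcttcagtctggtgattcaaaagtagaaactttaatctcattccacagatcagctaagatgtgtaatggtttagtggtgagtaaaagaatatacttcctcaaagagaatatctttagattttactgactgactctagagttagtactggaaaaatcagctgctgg
Gm13481: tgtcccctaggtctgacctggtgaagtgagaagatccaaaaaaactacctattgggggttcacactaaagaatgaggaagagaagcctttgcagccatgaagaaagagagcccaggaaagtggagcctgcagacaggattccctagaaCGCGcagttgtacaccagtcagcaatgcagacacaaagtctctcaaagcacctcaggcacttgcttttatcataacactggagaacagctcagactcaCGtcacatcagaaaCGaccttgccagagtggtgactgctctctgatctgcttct
The first 5 of these promoters hold no CG, and that of Gm13481 holds 4. In this the printed promoters are not typical of desert promoters in islands. CG was present in 3 of the 6 in islands on both days, 12 of the 16 on day 0 alone and 41 of the 51 on day 3 alone. Of the 702 on neither day, 86.8% held CG. The island around the Gm41334 promoter held 200 reads on day 0 (33.3 reads per kb) and 230 on day 3 (60.5 reads per kb), uncorrected for depth. The island around the Gm30957 promoter held 724 reads on day 3 (55.7 reads per kb). CG was present in 85.8% of desert promoters, all of them of lncRNA genes, and in 94.7% of all 31365 autosomal promoters of this table. GC made up a median of 43.7% of the bases in desert promoters and 53.3% in promoters of all gene kinds elsewhere. Among lncRNA promoters outside deserts, 93.8% held CG and the median GC was 48.7%.

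Deserts also hold 48 miRNA genes. None of them touched an island on day 0, and 8 lay in islands on day 3, against 2.90% and 5.90% of all autosomal miRNA genes. A single island on chromosome 16 (77595401 to 77603600, 416 reads) held both Mir99a and Mirlet7c-1, in the desert between Usp25 and Cxadr. Another on chromosome 9 (41536601 to 41543000, 326 reads) held Mirlet7a-2. The let-7 miRNAs are known to restrain proliferation in many cell types. The remaining genes were Mir195b, Mir344b, Mir3970, Mir6370 and Mir145b. The mature miRNAs of the leading genes are printed below from RefSeq, with the seed (bases 2 to 8), which pairs with target RNAs, in capitals. They are shown because these loci differed between the lists. No RNA was measured. For each gene 1 mature strand is printed, for Mirlet7a-2 the 3p strand, and no 2 of the printed strands share a seed. This does not hold for the genes as a whole. The hairpin of Mirlet7a-2 also contains the seed of let-7c-5p, outside the strand printed here.
mmu-let-7c-5p: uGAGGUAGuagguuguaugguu
mmu-miR-99a-5p: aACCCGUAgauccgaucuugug
mmu-let-7a-2-3p: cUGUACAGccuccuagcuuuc
mmu-miR-195b: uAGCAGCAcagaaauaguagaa
mmu-miR-344b-3p: cAUUUAGCcaaagccugacugu

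Desert sequence was covered less than the rest of the autosomes on day 0 and more on day 3. The 605 deserts made up 422.6 Mb, or 17.3% of the autosomes. Islands covered 2.45% of that sequence on day 0 and 9.42% on day 3, which is 3.84 times as much. Outside deserts they covered 4.46% and 7.86%, or 1.76 times as much. The rest was not uniform on day 3. Protein-coding gene bodies were covered over 9.51%, about as much as deserts. Sequence outside gene bodies but within 250 kb of a gene was covered over 5.56% to 7.55%, by distance class. With all sequence counted, the excess of deserts on day 3 was thus over sequence near genes and not over gene bodies. This changed without the sequence before the first island of each chromosome, an alternative chosen after the data were seen. Gene bodies were then covered over 9.54% on day 3. Deserts were covered over 9.54% from 250 to 500 kb, 10.8% from 500 to 1000 kb and 10.6% beyond. Desert islands made up 10.4% of the autosomal islands on day 0 (95% Wilson interval 9.99 to 10.8) and 21.0% on day 3 (20.6 to 21.4). In covered length, deserts held 10.4 Mb on day 0 and 39.8 Mb on day 3, and thus 30.0% of the net increase over all autosomes. Desert islands held 337346 reads on day 0 and 2035005 on day 3, or 9.92% and 19.5% of the reads in autosomal islands. Intervals cover counting error only, since several reads may stem from 1 molecule in libraries made by PCR without molecular identifiers. The order of deserts and rest on day 3 depended on the islands counted. With islands of at least the median density of their list, the desert share was 0.926 times that of the rest on day 3 and 0.386 times on day 0. When only the 19984 day 3 islands richest in reads were kept, to equal the number of day 0 autosomal islands, it was 1.04 times. Coverage was then 2.04 times as large on day 3 as on day 0 in deserts and 1.08 times in the rest.

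Outside gene bodies, the ratio of day 3 to day 0 grew with distance from genes. It was 1.85 inside gene bodies, 1.40 within 50 kb and 1.72 between 50 and 100 kb. Inside protein-coding gene bodies, islands covered 5.13% of sequence on day 0 and 9.51% on day 3. Within 50 kb of a gene the shares were 3.96% and 5.56%, and between 100 and 250 kb they were 3.45% and 7.55%. Between 250 and 500 kb they were 2.91% and 9.19%. Between 500 and 1000 kb they were 2.20% and 10%, and beyond 1000 kb 1.76% and 8.89%. The day 0 share thus fell from each of the last 4 classes to the next, while the ratio of day 3 to day 0 went up from 2.19 to 3.16, 4.54 and 5.05. The last classes take in chromosome starts in which neither list has an island. Without the sequence before the first island of each chromosome, an alternative chosen after the data were seen, the last 3 classes were covered over 3.02%, 2.37% and 2.10% on day 0 and 9.54%, 10.8% and 10.6% on day 3. The limit of 250 kb lay within this gradient and was no step in it. Sequence in the 25 kb just outside the limit was covered over 3.01% on day 0 and 7.87% on day 3, and sequence in the 25 kb just inside it over 3.06% and 7.70%.

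**Figure D1:**
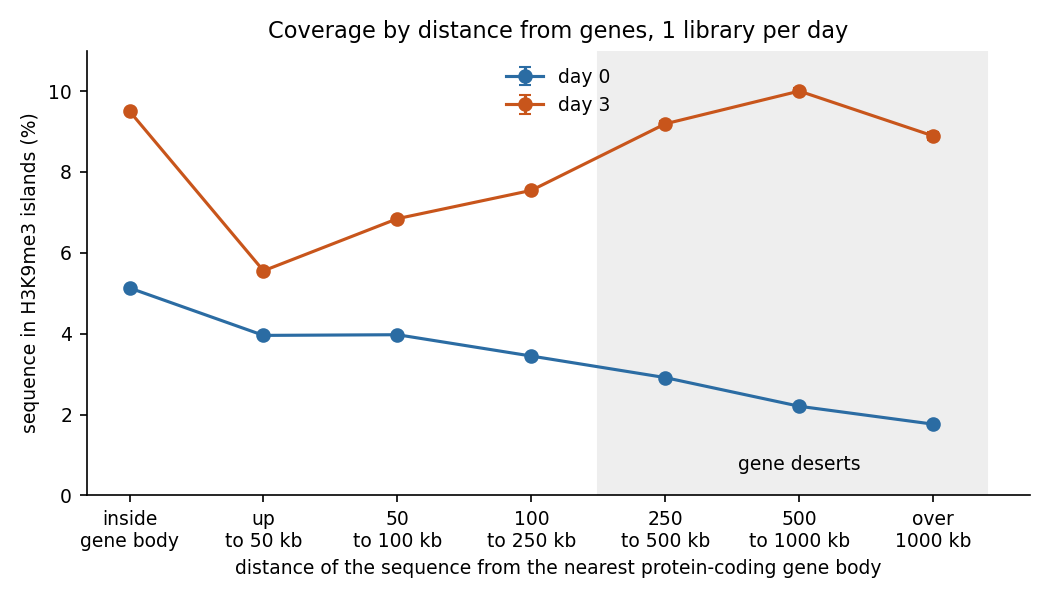
Share of autosomal sequence in H3K9me3 islands (y axis, %) by distance from the nearest protein-coding gene body (x axis, 7 classes), for day 0 and day 3 with 1 library each. Bars are 95% Wilson intervals over 200-bp windows and are mostly smaller than the points. They count each window as independent, although an island spans many windows, so they are too narrow. Beyond 250 kb, shaded, the day 0 share ran from 2.91% down to 1.76%, while the day 3 share stayed between 8.89% and 10%, chromosome starts without islands included.

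On day 0, deserts were covered less than the rest on all 19 autosomes. On day 3 they were covered more on 16 of 19, the exceptions being chromosomes 1, 3 and 19. The ratio of day 3 to day 0 was larger in deserts than in the rest on every one of the 19. In deserts it ran from 2.69 on chromosome 13 to 5.56 on chromosome 16, and in the rest from 1.28 on chromosome 11 to 2.33 on chromosome 15. Desert coverage on day 0 was lowest on chromosome 8 (1.41%) and highest on chromosome 13 (4.30%). On day 3 it was lowest on chromosome 7 (5.26%) and highest on chromosome 10 (12.7%) and chromosome 2 (12.5%). Chromosome 17 showed the widest gap on day 3 as a ratio, with 10.6% in deserts and 5.69% in the rest. The autosomes share their library, so these counts describe the spread along the genome and are not replicates.

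**Figure D2:**
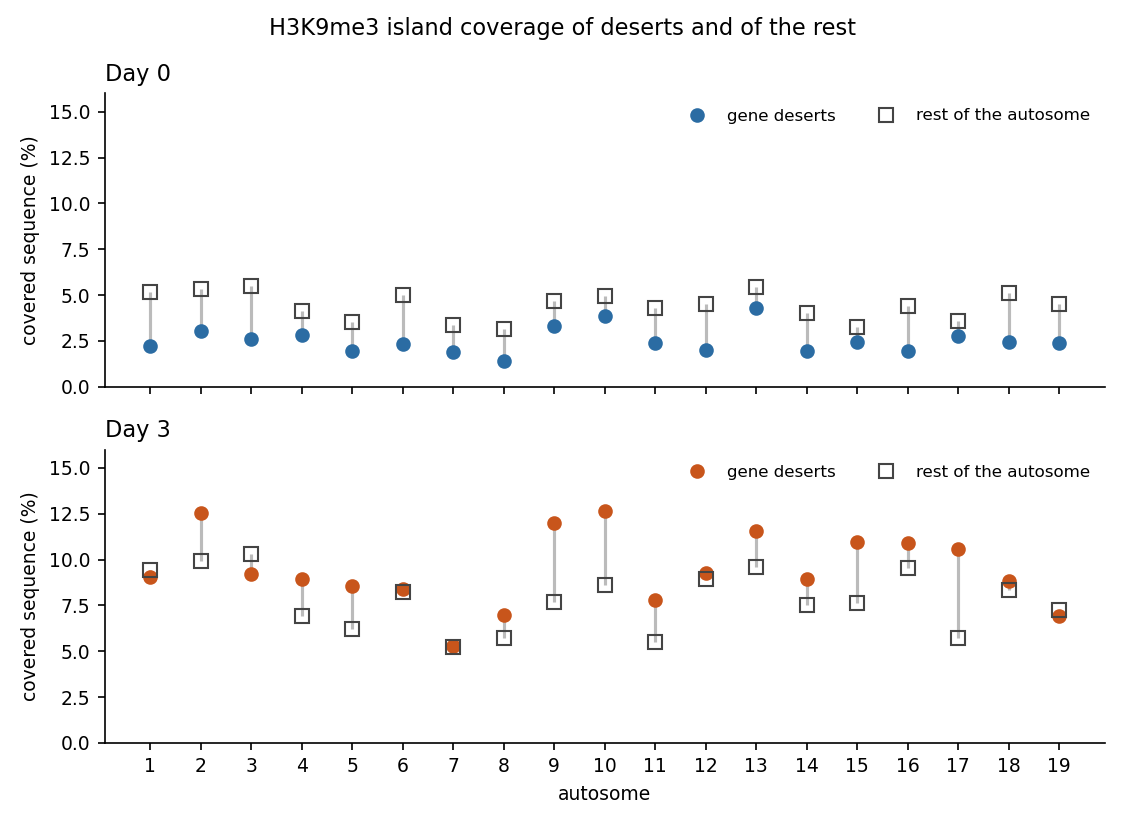
Share of sequence in islands (y axis, %) in deserts (filled circles) and in the rest (open squares) of each autosome (x axis), on day 0 (upper panel) and day 3 (lower panel). On day 0 every circle lies under its square, and on day 3 the circle lies above the square on 16 of 19 autosomes.

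Desert islands had about the median length of other islands, fewer very long ones, and a slightly lower read density on both days. The median length was 4800 bp on day 0 (quartiles 4000 and 5800), the same as in the rest. On day 3 it was 3600 bp (quartiles 2800 and 4800), against 3800 bp in the rest. The longest desert island measured 15.8 kb on day 0 and 20 kb on day 3. At least 10 kb was reached by 16 and 88 desert islands, or 0.770% and 0.881%, against 2.14% and 2.83% in the rest. For day 0 the median density in deserts was 33.0 reads per kb, with quartiles of 30.9 and 35.3, against 34.2 in the rest. For day 3 it was 51.9, with quartiles of 48.3 and 56.4, against 53.1. These densities are not corrected for library depth, so they are compared within a day. The desert median was 0.964 times that of the rest on day 0 and 0.977 times on day 3. It was lower in deserts on all 19 autosomes on day 0 and on 18 on day 3, the exception being chromosome 15.

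**Figure D3:**
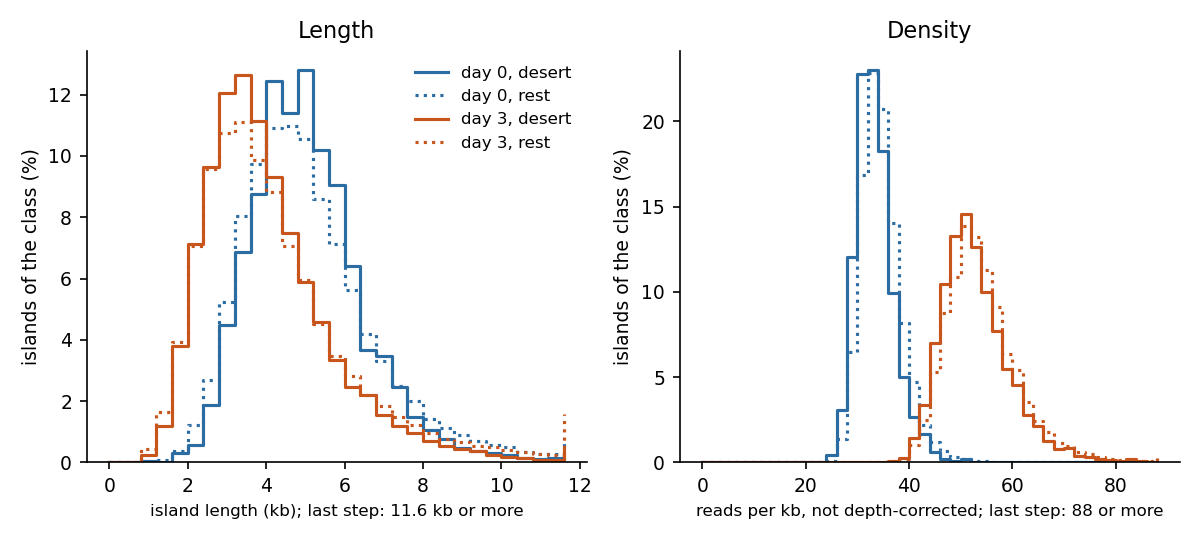
Distribution of island length (left, x axis in kb) and read density (right, x axis in reads per kb, not corrected for depth) as the share of islands of each class (y axis, %), for desert islands (solid) and other autosomal islands (dotted) on each day; the last step holds all larger values. Solid and dotted lines lie close together within a day, with the desert density shifted left, at medians of 33.0 and 51.9 reads per kb.

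Islands in deserts stood further apart than elsewhere. The distance to the nearest island of the same day had a median of 51.0 kb on day 0, against 23.6 kb in the rest. On day 3 it was 9.60 kb, against 8.40 kb. Per Mb of sequence, deserts held 4.92 islands on day 0 and 23.6 on day 3, and the rest held 8.87 and 18.6.

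Of the 2079 desert islands on day 0, 811 or 39.0% overlapped a day 3 island by at least 1 bp (95% Wilson interval 36.9 to 41.1), against 33.6% of all autosomal day 0 islands and 33.0% outside deserts. In the other direction, 856 of the 9991 day 3 desert islands (8.57%, interval 8.03 to 9.13) overlapped a day 0 island, against 14.9% of all and 16.5% outside deserts. Both shares move with how much the other list covered. With equal list lengths 21.4% of the day 0 desert islands recurred, and with the density limit 20.03% of those of day 0 and 3.66% of those of day 3. In deserts, 24.0% of the bases covered on day 0 were covered on day 3 too, where day 3 islands held 9.42% of all desert bases. In the rest 20.8% were, where day 3 islands held 7.86%. The day 0 share did not depend on depth into the desert, at 39.1% between 250 and 500 kb, 38.6% between 500 and 1000 kb and 39.5% beyond. The day 3 share went down over these classes, from 10.6% to 7.11% and 6.54%. Recurrent and other day 0 desert islands had similar densities, with medians of 33.0 and 32.9 reads per kb, and the same median length of 4800 bp. On day 3, recurrent desert islands were longer, with a median of 4200 bp against 3600 bp.

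The recurrent pair with the longest overlap, 10.6 kb, lay on chromosome 4 between Tusc1 and Caap1. Its day 0 island (93811401 to 93822800) held 407 reads and its day 3 island (93812201 to 93824000) 525. Next were pairs with an overlap of 8.20 kb between Zeb2 and Acvr2a and between Rap2b and Arhgef26. A pair between Nmbr and Cited2 on chromosome 10 overlapped over 7.20 kb.

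The day 0 desert island with the most reads was 15.8 kb long and lay between Lrp1b and Kynu (chromosome 2, 43174001 to 43189800). It held 497 reads (exact Poisson interval 454 to 543) and overlapped a day 3 island. Those with 431, 415, 407 and 387 reads lay between Ripk2 and Mmp16, St3gal1 and Zfat, Tusc1 and Caap1, and Cetn3 and Mef2c. These 5 were the longest as well, at 11.4 to 15.8 kb, and 4 of them recurred on day 3. On day 3 the island with the most reads was 19 kb long and lay between Celf2 and Gata3 (chromosome 2, 9100601 to 9119600). It held 1061 reads (interval 998 to 1127) and overlapped no day 0 island. It was followed by islands with 974 reads between Trps1 and Eif3h, 971 between Ccdc54 and Cblb, 936 between Amd2 and Hs3st5 and 907 between Bckdhb and Tent5a. Of these 5 day 3 islands, which were the 5 longest too, that between Ccdc54 and Cblb was the one with a day 0 overlap. The densest desert islands were short. On day 0 the densest was 1 kb long with 72.0 reads per kb, between Stim2 and Pcdh7. It was followed by islands with 52.5 reads per kb between Stpg2 and Pdha2 and 51.9 between Plcl1 and Hsfy2. On day 3 the densest was 200 bp long with 235 reads per kb (47 reads, interval 34.5 to 62.5), between Il7 and Stmn2. Next were islands with 110 reads per kb between Cdh2 and Dsc3 and 107.5 between Ripk2 and Mmp16.

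Seen by desert, 460 of the 605 had more covered sequence on day 3 (76.0%), 56 had more on day 0, and 89 held no covered base on either day. Over autosomal windows of 1 Mb, 74.3% had more on day 3 and 21.7% on day 0. The share of deserts with more on day 3 was near that of windows, but the units are unlike. Deserts had a median length of 383.8 kb, and many short ones held no covered base. Among the 411 deserts of at least 200 kb, 355 had more on day 3, 30 had more on day 0 and 26 held no covered base. Over all 605 deserts, with equal list lengths, 343 had more on day 3 and 128 on day 0. The desert median went from 1.87% on day 0 (quartiles 0 and 3.87) to 7.98% on day 3 (quartiles 2.52 and 12.4). By desert length, day 0 coverage was 2.67% in deserts under 200 kb, 3.18% from 200 to 500 kb, 2.96% from 500 kb to 1 Mb, 2.57% from 1 to 2 Mb and 1.80% at 2 Mb or more. On day 3 the same classes were covered over 7.03%, 9.31%, 9.81%, 10.2% and 8.96%. Coverage was thus highest in the second class on day 0 and in the fourth on day 3. None of the 55 deserts of 2 Mb or more was covered more on day 0, 49 were covered more on day 3, and 6 were not covered. Some deserts without a covered base lie at chromosome starts where neither list has an island. Of the 89, 18 lay wholly before the first island of their chromosome, among them the 3 longest.

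Among the 10 longest deserts, 8 held islands in numbers. The longest, 4.04 Mb between the protocadherin genes Pcdh20 and Pcdh9 on chromosome 14 (88721396 to 92763700), held 11 islands on day 0 and 125 on day 3, over 1.37% and 11.7%. The one between Olfm4 and Pcdh17 was covered over 2.58% and 12.7%, and that between Tenm3 and Aga over 1.18% and 12.3%. The desert between Slc39a10 and Tmeff2 on chromosome 1 (47175776 to 50650683) went from 9 islands to 118, and from 0.967% to 12.9%. Smaller day 3 shares were found in the deserts between Cntnap5b and Cdh20 (1.32% and 4.35%), Dsel and Cntnap5a (1.45% and 4.72%), Celf4 and Pik3c3 (2.07% and 5.63%), and Lrrc4c and Iftap (1.21% and 8.54%). Several of these deserts have cell adhesion genes of neurons at their borders. Over the 8, whatever their border genes, day 3 coverage ranged from 4.35% to 12.9%. The other 2 lie at the starts of chromosomes 16 and 3 and held 1 island on day 0 and 3 on day 3. No autosomal island of either day starts before base 3032001, and mouse assemblies leave the centromeric start of the chromosomes as unknown sequence. In all, 30.2 Mb of desert sequence (7.14%) lay before the first island of its chromosome, and so did the 3 longest deserts without an island. Without that sequence, a setting chosen after the data were seen, deserts were covered over 2.64% on day 0 and 10.1% on day 3.

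The 10 deserts with the largest excess on day 3, among the 411 of at least 200 kb, gained 20.7 to 28.6 percentage points. That between Trps1, a zinc finger repressor gene, and Eif3h, a translation initiation factor gene (chromosome 15, 51140631 to 51536563), was covered over 3.08% by 3 islands on day 0 and over 31.7% by 22 islands on day 3. The desert on the other side of Trps1, towards Csmd3, was covered over 1.82% and 23.8%. Between Tox, a transcription factor gene of exhausted T cells, and Car8 (chromosome 4, 7241557 to 7891493), coverage was 7.45% by 9 islands and 33.0% by 46. Between Pdcd1, which encodes the inhibitory receptor PD-1, and Fam174a (chromosome 1, 94302553 to 95063628), it was 7.84% by 11 islands and 32.9% by 50. Between Ccdc54 and Cblb, a ubiquitin ligase gene that restrains T cell activation (chromosome 16, 50841154 to 51781230), it was 3.85% by 8 islands and 27.4% by 55. Between Celf2 and Gata3, a transcription factor gene of T cell development (chromosome 2, 7646341 to 9607078), it was 4.01% by 17 islands and 25.7% by 100. The others were Dthd1 to Nwd2 (1.61% and 25.8%), Rasa1 to Cox7c (9.01% and 32.6%), Pdgfc to Ctso (4.48% and 27.8%) and Akr1e1 to Klf6 (7.36% and 28.05%). All 10 kept an excess on day 3 with equal list lengths (12.6 to 20.8 points) and with the density limit (8.07 to 20.9 points). These deserts were chosen for their excess, and both settings keep parts of the same lists. That an excess remained is therefore no independent support.

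Deserts with an excess on day 0 were fewer and their differences smaller. Between AW209491 and Gli3, coverage was 9.34% on day 0 and 5.41% on day 3. Between Tusc1 and Caap1 (chromosome 4, 93585511 to 94250079) it was 14.5% by 19 islands and 10.7% by 17, with 9 of the day 0 islands recurring. Between Nucb2 and Xylt1 it was 3.47% and 0%, between Grm7 and Lmcd1 5.23% and 1.84%, and between Camk1g and Plxna2 7.66% and 4.30%. With the density limit, Nucb2 to Xylt1 and Grm7 to Lmcd1 no longer differed between days. The highest mean coverage over the 2 days, among deserts of at least 200 kb, lay between St3gal1, a sialyltransferase gene, and Zfat (chromosome 15, 67426946 to 67833714), with 19.1% by 14 islands on day 0 and 32.3% by 27 on day 3. Of its day 0 islands, 12 recurred. It was followed by the deserts of Rasa1, Pdcd1 and Tox given above and by that between Nr5a2 and Ptprc, which encodes CD45, with 9.54% and 30.0%.

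**Figure D4:**
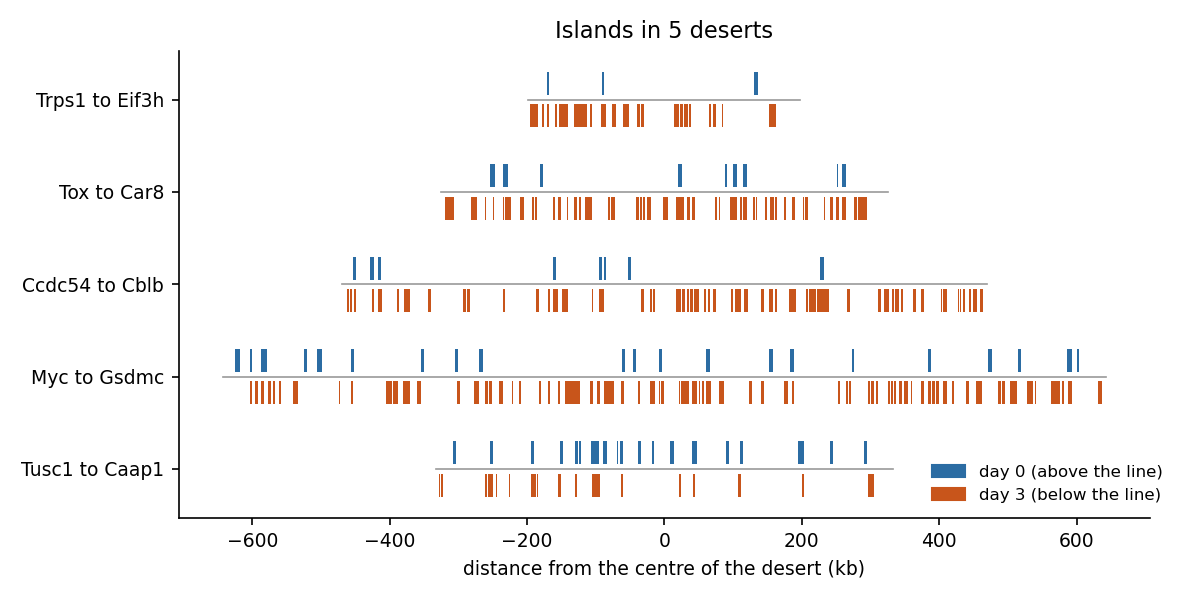
Positions of islands in 5 deserts, each drawn as a line, by distance from the centre of the desert (x axis, kb), with day 0 islands above and day 3 islands below the line. The 4 upper deserts held 3 to 21 islands on day 0 and 22 to 75 on day 3, and Tusc1 to Caap1 held 19 and 17.

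Deserts that border genes of T cells were covered more than other deserts on both days. Of 43 such genes listed, 16 were the nearest protein-coding gene of a desert, and they bordered 18 deserts with 12.5 Mb. Together these were covered over 5.48% on day 0 and 22.2% on day 3, against 2.36% and 9.03% of the other deserts. Their medians were 4.42% and 21.0%, against 1.87% and 7.98% over all 605 deserts. The coverage of these deserts was 4.04 times as large on day 3 as on day 0, against 3.84 times over all. On day 0, 11 of the 18 lay above the upper quartile of all deserts (3.87%), and on day 3 13 lay above it (12.4%). On day 0, 5 of the 18 (27.8%) held no island, against 182 of all 605 (30.1%) with no covered base. The list was chosen with earlier results of these data known, so it is not independent evidence, and no test of the list was made. The higher coverage stood also with equal list lengths (15.5% on day 3, against 5.01% of all desert sequence) and with the density limit (2.08% and 12.2%, against 0.755% and 3.27%). These 2 checks were chosen after the data were seen.

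Between Myc, the growth regulator gene whose downstream region is known for enhancers active in blood cells, and Gsdmc (chromosome 15, 62240361 to 63525971), 21 islands covered 8.60% on day 0 and 75 covered 28.5% on day 3. Of the day 0 islands 11 recurred, one of them the island around the Gm41334 promoter printed above, while that around Gm41335 did not. On the other side of Myc, towards A1bg, coverage was 5.54% and 20.2%. The desert of 3.20 Mb between Zeb2, a transcription factor gene of terminal effector cells, and Acvr2a held 31 islands on day 0 and 158 on day 3, over 4.84% and 21.0%. Between Ets1, a lymphocyte transcription factor gene, and Kirrel3 coverage was 6.34% and 17.3%. The chromatin organizer gene Satb1 borders deserts on both sides. That towards Tbc1d5, 55.0 kb long, had no island on day 0, and 3 islands covered 27.3% on day 3. That towards Kcnh8, 269.4 kb long, was covered over 3.27% by 2 islands and 18.3% by 12. Deserts beside S1pr1, the receptor for exit from lymph nodes, beside Icos, a costimulatory receptor gene, and beside Foxp1, a factor of T cell quiescence, were 82.6 to 138.3 kb long and held 5 islands each on day 3. They were covered over 25.3%, 21.0% and 25.5% on day 3 and over 6.61%, 3.90% and 0% on day 0. Beside Foxo1, Prdm1 and Bcl11b no island was listed on day 0, and day 3 islands covered 6.51%, 9.35% and 8.45%. These shares came from 2, 1 and 6 islands in deserts of 132.0, 38.7 and 298.3 kb. Beside Id2, which encodes an inhibitor of E proteins, coverage was 6.78% and 8.08%. The desert between Runx1 and Setd4 was the one of the 18 with less on day 3, with 8.63% on day 0 and 6.76% on day 3.

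**Figure D5:**
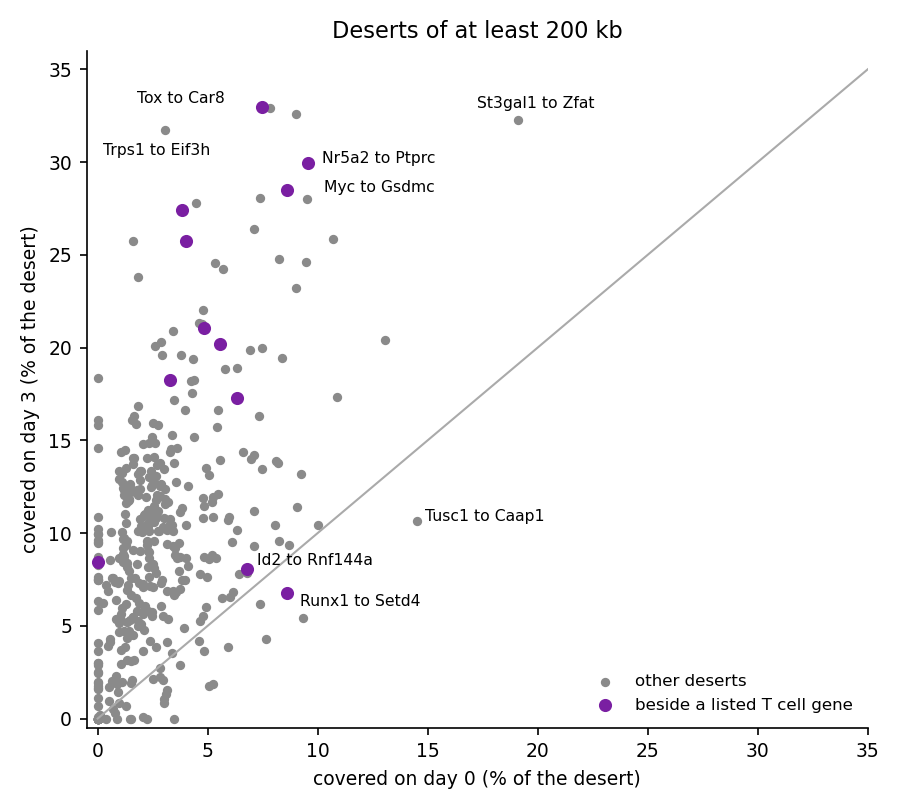
Share of each desert of at least 200 kb in islands on day 0 (x axis, %) and day 3 (y axis, %), 411 deserts; purple points are the 12 that border a listed T cell gene, and the line marks equal shares. Most points lie above the line, 355 of 411, and Runx1 to Setd4 and Tusc1 to Caap1 are among the 30 below it.

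The 54 deserts beside developmental transcription factor genes of the Sox, Pax, Tbx, Zic and related families were covered over 3.05% on day 0 and 9.33% on day 3, and 37 of them (68.5%) were covered more on day 3, against 76.0% of all deserts. The 108 deserts beside neuronal adhesion and synaptic genes were covered over 1.99% and 9.73%, and 94 (87.0%, against 76.0% of all) were covered more on day 3. Olfactory or vomeronasal receptor genes bordered 3 deserts. Most of their sequence lies before the first island of chromosomes 4 and 16, so no pooled share is given. The third, of 28.1 kb between Olfr1505 and Tle4, had no island on day 0 and was covered over 37.8% on day 3. The lists overlap. Deserts beside Tox, Satb1, Gata3, Id2 and Bcl11b stand among those of T cell genes and of developmental factors, and that between Ets1 and Kirrel3 among those of T cell and adhesion genes.

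Protein-coding genes exclude the V segments of antigen receptors, so some receptor loci lie in deserts. The desert of immunoglobulin heavy chain V segments (chromosome 12, 113796414 to 115797714) held 8 islands on day 0 and 43 on day 3, over 1.91% and 10.8%. That of T cell receptor alpha V segments (chromosome 14, 52791356 to 53985485) held 5 islands on day 0 and 1 on day 3, over 2.04% and 0.100%.

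Most desert islands touched no annotated gene of any kind, 1779 of 2079 on day 0 and 8918 of 9991 on day 3. The rule itself excludes contact with protein-coding genes, so this is in part fixed by it. Shares of other autosomal islands that touch a gene were not computed. An lncRNA gene was touched by 253 on day 0 (12.2%, 95% Wilson interval 10.8 to 13.6) and by 915 on day 3 (9.16%, interval 8.61 to 9.74). Seen from the 866 desert lncRNA genes, 157 (18.1%) were touched on day 0 and 328 (37.9%) on day 3. Among all autosomal lncRNA genes the shares were 15.0% and 19.2%. In terms of gene body, desert lncRNA genes were covered over 3.09% and 9.94%, close to the desert sequence around them. Of 1109 desert pseudogenes, islands touched 19 (1.71%) on day 0 and 52 (4.69%) on day 3, against 3.47% and 5.57% of pseudogenes outside deserts. The lncRNA gene with the most covered bases on day 0 was Gm20125, between Nmbr and Cited2, where islands held 36 kb or 24.9% of its body, and 30.1 kb or 20.8% on day 3. Gm31145, between Pou3f2 and Mms22l, was covered over 27.8 and 33.8 kb, and 6530403H02Rik over 19.6 and 24.6 kb. On day 3 the most covered were Gm32647, beside Tenm4, with 122.2 kb (33.6 kb on day 0), and Gm13481, beside Acvr2a, with 109.3 kb (25.2 kb on day 0). Gm13219, between Celf2 and Gata3, had no island on day 0, while on day 3 islands held 68.7 kb or 59.7% of it. 1700019L22Rik and Gm41534 held 77.1 and 58.6 kb of islands on day 3, after 14.6 and 3.80 kb on day 0.

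Base composition moved with coverage and is given for the promoters, the one set of sequences used here. Since 633 of 866 desert lncRNA genes had a promoter sequence, under 80%, these values are void as a check of the desert islands themselves. Of desert promoters with under 40% GC, 5.83% lay in islands on day 0 and 13.9% on day 3 (223 promoters). Outside deserts the shares for lncRNA promoters were 5.57% and 9.16% (1168 promoters). Of those with 40 to 50% GC, 1.45% and 5.54% did in deserts (415 promoters), and 3.97% and 3.503% outside (4682 promoters). Of those with 50% GC or more, 2.19% did on both days in deserts (3 of 137 promoters each), and 1.45% and 0.811% outside (4685 promoters). Promoters poor in GC were thus inside islands more often on day 3, in deserts and outside. The part of base composition in the difference between deserts and the rest was not tested.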

How the data were processed

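Per the labels, H3K9me3 ChIP and input libraries were made from naive CD8+ T cells (day 0) and from cells cultured to day 3, from 4000000 cells each and paired-end reads of 150 bases. The 2 input libraries were not analysed here. Per the submitters' processing notes, the tools were Bowtie2 and SICER 1.1 and the build mm10. Threshold, gap size, treatment of duplicates and use of input: not given in the sources used here. The authors deposited 1 list of islands per ChIP library, in which each island carries a whole number without a column name. This deposited number was read as the count of ChIP reads that the authors found in the island, not scaled for depth, length or input. The depth of each library is not known from these files, since a list holds the reads inside islands alone.

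Island positions, which count from 0, were converted to 1-based positions, and chromosomes 1 to 19 were kept. Deserts were the runs of sequence at least 250 kb from each of 20665 autosomal protein-coding genes of the RefSeq table (GRCm38.p6). Each autosome was counted from its first to its last island or gene. Density is reads per kb of island. Coverage by distance was counted in windows of 200 bp, in which every island starts. Intervals are 95% Wilson intervals for shares and exact Poisson intervals for read counts, and cover counting error only. Those over windows of 200 bp count each window as independent, although an island spans many windows, so they are too narrow even for that. With 1 library per day no test was made. Interval code was tested on simulated data. Python 3.11.15, numpy 2.4.6 and pandas 2.3.3 were used.

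Deserts were named by rule after the nearest protein-coding genes on both sides. Those named were the 10 longest, the 10 with the largest day 3 excess, the 5 with the largest day 0 excess and the 5 highest on both days among those of at least 200 kb, and the 3 longest without an island. Islands were named by most reads (5 per day), length (5) and density (3), recurrent pairs by overlap (5, of which 1 is not reported here), and non-coding genes by covered bases (5 per day). Deserts beside listed T cell genes and the printed sequences were described beyond that rule. The members and gene lists were chosen with earlier results of these data known.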

Additional observations from a re-analysis of the deposited data

How the results depend on the processing

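The lower coverage of deserts than of the rest on day 0, and the larger ratio of day 3 to day 0 in deserts, kept their direction under all alternatives run. The order on day 3 reversed with the density limit alone. Under alternatives that change the lists, the distance or the genes, shares overlapping the other day were computed for desert islands alone. With 1 library per day leaving out a replicate was not an option. The unknown mapped depth of the libraries limits every comparison of levels between days. No paired analysis was possible because each day had 1 library and no test was made.

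With islands of at least the median density of their list, deserts held 784 islands on day 0 and 4372 on day 3 (7.84% and 18.4% of autosomal islands) and were covered over 0.755% and 3.27%, or 0.386 and 0.926 times the rest. Median length was 3800 and 2800 bp and density 36.2 and 57.2 reads per kb, or 0.985 and 0.995 times the rest. Shares overlapping the other day were 20.03% and 3.66%, the ratio of day 3 to day 0 was 4.33 in deserts and 1.81 in the rest, and 146 deserts were not covered.

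With equal list lengths, deserts held 3758 islands on day 3 (18.8%) over 5.01% of their sequence, 1.04 times the rest. Their median length was 5200 bp and their density 50.2 reads per kb, 0.966 times the rest. The shares overlapping the other day were 21.4% on day 0 and 11.9% on day 3, the ratio of day 3 to day 0 was 2.04 in deserts and 1.08 in the rest, and 128 deserts were covered more on day 0.

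With a distance of 100 kb there were 3908 and 15008 desert islands (19.6% and 31.6%), covering 2.84% and 8.69%, or 0.615 and 1.099 times the rest. The day 0 density was 33.3 reads per kb, 0.973 times the rest, 36.6% and 9.86% of islands overlapped the other day, and the ratios of day 3 to day 0 were 3.06 and 1.71 in the rest. Of these deserts 854 were covered more on day 3, 239 more on day 0 and 303 not at all. With 500 kb there were 919 and 5474 islands (4.60% and 11.5%), covering 2.05% and 9.61%. The day 0 share was 0.474 times the rest, densities were 32.7 and 51.7 reads per kb, 6.92% of day 3 islands overlapped day 0, and the ratios of day 3 to day 0 were 4.69 and 1.85 in the rest. Of these deserts 214 were covered more on day 3, 16 more on day 0 and 32 not at all.

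With distance taken from lncRNA genes too, there were 785 and 4695 islands (3.93% and 9.87%), covering 2.08% and 9.66%, or 0.485 and 1.21 times the rest. The day 0 density was 32.5 reads per kb, 0.953 times the rest, 41.1% and 7.37% of islands overlapped the other day, and the ratios of day 3 to day 0 were 4.64 and 1.87 in the rest. Of these deserts 300 were covered more on day 3, 25 more on day 0 and 51 not at all.

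Counted from base 1 of each chromosome, deserts were covered over 2.36% and 9.04%, or 0.528 and 1.15 times the rest. Counted from the first island, an alternative chosen after seeing the data, the values were 2.64% and 10.1%, or 0.587 and 1.28 times. With antigen receptor segments counted as genes, also chosen after seeing the data, the day 3 values were 9.52% and 1.21 times. Overlap of at least 50% of an island gave 25.6% and 6.31% recurrent desert islands, against 21.6% and 11.3% outside deserts. A distance of up to 1 kb gave 41.6% and 9.45%, against 35.9% and 18.4%. For named deserts, the alternatives on distance and lncRNA genes change the deserts themselves and were not computed. Counted from the first island, deserts of 2 Mb or more were covered over 2.10% and 10.4%. The causes of these shifts were not tested.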
